A study of Mus musculus with 10 samples.

Results

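The genes described here are 10 immediate early genes whose products are, for the most part, transcription factors of the AP-1 family or an Egr factor: Fos, Fosb, Fosl1, Fosl2, Jun, Junb, Jund, Egr1, Ier2 and Ier3. They were taken by their symbols from the deposited table of mSCLC-2405 cells, and 10 of 10 were found among its 26335 genes. All 10 had a mean log2 CPM above 0 over the libraries (CPM, reads scaled to library depth) and were among the 12306 genes tested. mSCLC-2405 is a single mouse small cell lung cancer line, derived from a primary lung tumour of a mouse model in which tumour suppressor genes, Rb1 among them, were deleted by Cre delivered to the airways with an adenovirus, so that the control and treated cells share the deletions. The study grew the cells in RPMI medium with serum for 48 h, with DMSO in 5 control libraries or with 250 μM stiripentol, an antiseizure medication that the study examined for its effect on the respiratory chain, in 5 libraries. The sources disagree on the library type, which is TruSeq total RNA in the labels and Lexogen QuantSeq, a 3′ mRNA kit, in the study's methods. The libraries are separate samples in the labels. The study defines n in general as independent biological samples, meaning mice, and does not say for this line whether the libraries came from separate cultures, so that the p-values measure only the spread between these samples, which may be technical.

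Immediate early genes are switched on within minutes of a growth factor, stress or calcium signal, without new protein synthesis, because the factors that switch them on, such as serum response factor with its Elk partners and CREB, are already present and are activated by kinases. Fos and Jun proteins pair through leucine zippers to form AP-1, which binds DNA and drives genes of proliferation, invasion and matrix remodelling, whereas Egr1 is a zinc finger factor. In a culture growing in serum, a steady level of these genes reflects continued signalling and RNA decay together.

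Control libraries held 22375625 to 65299372 recovered reads and treated libraries 55015760 to 60670901. Over all genes the libraries of each group fell into 2 sets. Controls 4 and 5 stood apart from controls 1 to 3, and stiripentol 1 and 2 stood apart from stiripentol 3 to 5. The correlation across genes was 0.983 to 0.997 between libraries of the same group and set, and 0.920 to 0.939 between the sets of a group. Stiripentol 1 and 2 had a median log2 CPM over the tested genes of 4.77 and 4.87, against 5.11 to 5.20 in the other 8 libraries. The labels name no batch. Controls 4 and 5 with stiripentol 1 and 2 are called the 2-by-2 set here and the other 6 libraries the 3-by-3 set, although the labels do not match the sets between the groups. The deviations of libraries from their group means correlated weakly within these sets (0.06 to 0.24). The study's own table numbers the controls differently, with controls 4, 5, 1, 2 and 3 of the sample records as its controls 1 to 5, and in that order numbers 1 and 2 of both groups form the 2-by-2 set. The numbers of the sample records are used throughout. Of the 12 neuroendocrine markers that define most small cell lung cancer, 8 were in the table and 2, Ncam1 and Uchl1, had a mean log2 CPM above 0. Scg2 and Dll3, also neuroendocrine markers, had 3 reads or fewer in every library. All 7 markers of non-neuroendocrine small cell lung cancer (Yap1, Rest, Hes1, Notch2, Vim, Cd44 and Axl) were above 0. Since RNA was measured in bulk, fewer cells of a type and less RNA per cell cannot be told apart.

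Parts of the promoters of 4 of the genes are shown, because promoters are among the DNA through which the Fos and Jun genes respond to signals. Each is the 250 bases before the RefSeq transcription start in GRCm38.p6, read 5′ to 3′ on the gene's strand, with short motifs in capitals. For Fos (chr12:85473640-85473889, plus strand) and Fosb (chr7:19310046-19310295, minus strand), the capitals mark TGACG, the core of a cyclic AMP response element, and in Fos also TATAAA, the sequence of a core promoter element. For Jun (chr4:95052223-95052472, minus strand) they mark TGACATCA, an AP-1-like element, and for Junb (chr8:84978749-84978998, minus strand) TGACG.
Fos: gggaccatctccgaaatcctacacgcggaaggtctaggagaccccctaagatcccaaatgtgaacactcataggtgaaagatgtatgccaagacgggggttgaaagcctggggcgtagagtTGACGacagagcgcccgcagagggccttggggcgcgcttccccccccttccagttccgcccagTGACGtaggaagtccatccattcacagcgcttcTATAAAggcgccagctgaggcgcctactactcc
Fosb: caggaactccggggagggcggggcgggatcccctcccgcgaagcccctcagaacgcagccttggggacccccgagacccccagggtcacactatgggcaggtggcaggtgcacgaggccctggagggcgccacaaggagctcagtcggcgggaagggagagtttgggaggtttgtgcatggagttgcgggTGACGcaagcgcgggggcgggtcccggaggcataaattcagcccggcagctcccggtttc
Jun: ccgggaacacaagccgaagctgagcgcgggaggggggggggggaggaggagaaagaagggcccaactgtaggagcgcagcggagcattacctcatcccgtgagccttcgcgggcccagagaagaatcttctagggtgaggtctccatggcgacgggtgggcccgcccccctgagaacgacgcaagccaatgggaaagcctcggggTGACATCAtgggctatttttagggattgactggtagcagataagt
Junb: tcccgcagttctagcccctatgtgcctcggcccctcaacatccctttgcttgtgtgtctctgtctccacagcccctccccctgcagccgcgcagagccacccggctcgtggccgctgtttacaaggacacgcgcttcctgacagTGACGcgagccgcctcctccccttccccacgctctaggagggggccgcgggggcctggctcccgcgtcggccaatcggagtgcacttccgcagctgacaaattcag
In Fos the TGACG cores lay at -129 to -125 and -66 to -62 and TATAAA at -33 to -28, counted from the first transcribed base. The core lay at -60 to -56 in Fosb and at -106 to -102 in Junb, and the AP-1-like element of Jun at -45 to -38.

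Promoter sequences were found for 7 of the 10 genes (Fos, Fosb, Fosl2, Jun, Junb, Jund and Ier3), and those of Fosl1, Egr1 and Ier2 were not analysed here. The Jund window, at 70697489 to 70697738 on chromosome 8, does not adjoin the gene start of the GENCODE M21 annotation, at 70698949. It had 47.6% GC and may not be the promoter of the annotated transcript, but it is counted among the 7. The Fosl2 window, at 32136222 to 32136471 on chromosome 5, lies inside the annotated gene, which starts at 32135801. That of Ier3 ends at 35821712 on chromosome 17, past the annotated gene start at 35821684. The Fosb window begins at 19310046, just inside the gene on the minus strand that reaches 19310051. These windows are also counted. On either strand, TGACG was present in 3 of the 7 and in 17.8% of 32851 mouse promoters of the same length, TATAAA in 1 of the 7 and 12.4% of all, and TGACATCA in 1 of the 7 and 2.93% of all. These 3 motifs were chosen after the sequences were seen, and TGACG is contained in the full element TGACGTCA. The full element, the AP-1 site TGACTCA, the Egr site GCGTGGGCG and the CArG box bound by serum response factor were in 0 of the 7 windows and in 1.55%, 4.46%, 0.536% and 1.47% of all. Sequence farther upstream than 250 bases was not searched, so that these counts do not show that a gene lacks a motif. A match is a description of the letters and not a site of binding. The median GC content was 61.2% in the 7 promoters and 52.4% in all.

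Stiripentol treatment was accompanied by lower RNA levels of this group of genes. With all 10 libraries as replicates, limma called 9 of the 10 genes lower and 0 higher, at an adjusted p under 0.05 over all genes tested, while it called 14.1% of all tested genes lower and 13.6% higher. The median log2 change of the 10 genes was -1.29, against -0.06 for all genes tested. In 8 of the 10 genes every stiripentol library lay below every control library, which was so for 14.3% of all tested genes. The log2 change was below -1 in 8 of the 10, and in 10.8% of all tested genes. Without stiripentol 1 and 2 limma called 8 of the 10 lower, with 13.0% of all genes called lower, and Jun was the gene lost. The genes were chosen with these results known, and the counts describe the group.

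**Figure D1:**
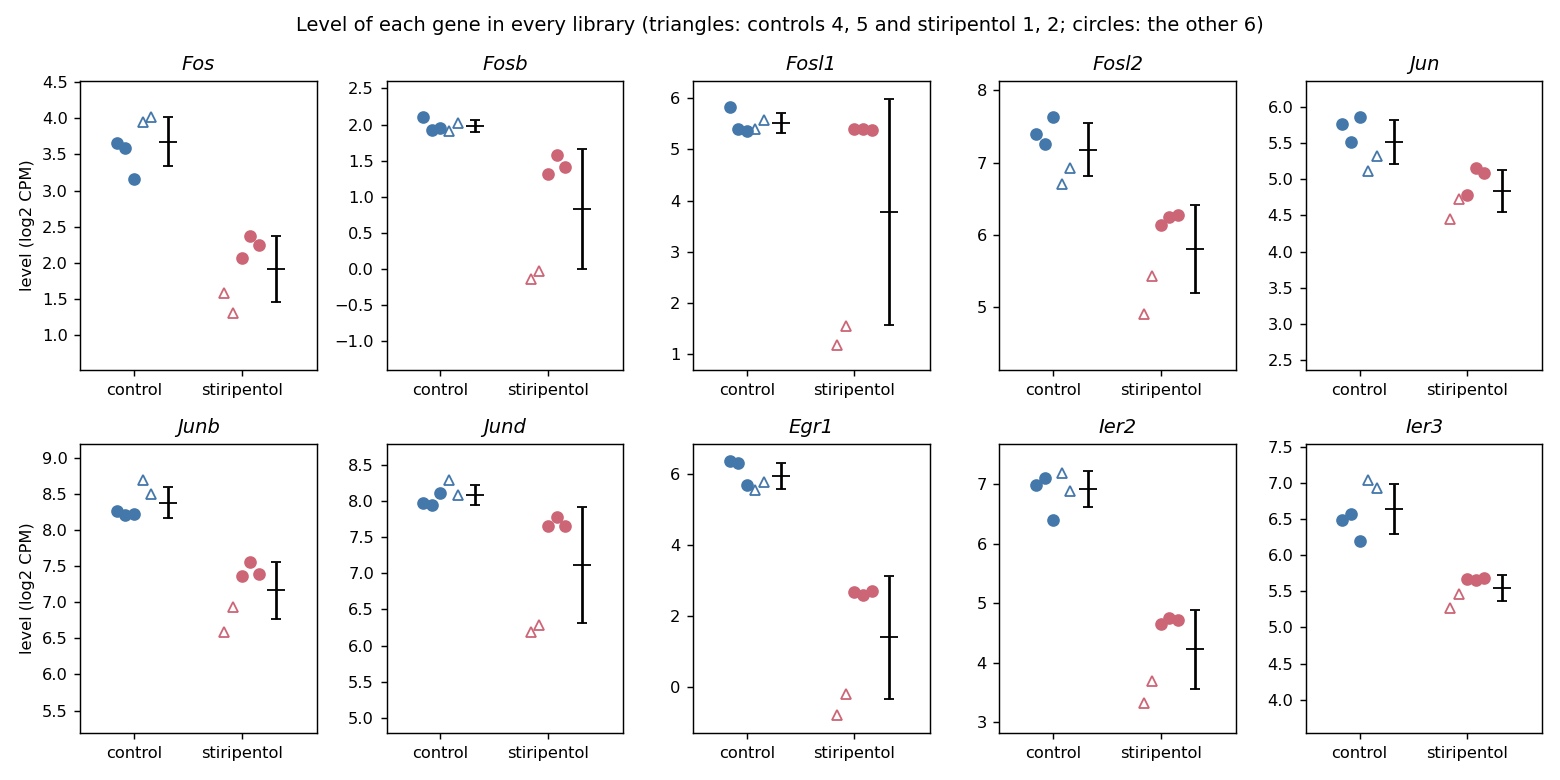
Level in log2 CPM of each of the 10 genes in every control (blue) and stiripentol (red) library, with the mean and SD of the 5 libraries of a group as a bar beside the points; the vertical axes differ between panels. Triangles are controls 4 and 5 and stiripentol 1 and 2, and stiripentol 1 and 2 are the lowest 2 libraries in all 10 panels, with the widest gap for Fosl1, where they had 1.18 and 1.54 and the other 3 treated libraries 5.37 to 5.39.

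Egr1, which encodes a zinc finger factor induced by ERK signalling, showed the largest fall of the 10. Its level was 6.36, 6.32, 5.71, 5.57 and 5.78 log2 CPM in controls 1 to 5 and -0.78, -0.18, 2.68, 2.61 and 2.70 log2 CPM in stiripentol 1 to 5. The groups did not overlap, and stiripentol 1 and 2 lay about 3 log2 units below the other treated libraries. The mean fell from 5.95 ± 0.37 to 1.41 ± 1.74 (SD, n = 5 libraries a group, as in all means below), a log2 change of -4.54 (SE 0.69, limma adjusted p = 0.00146), which is 23.3-fold lower. Among the 12306 genes tested this was the 13th lowest change. Its depth was 1230 to 5360 reads in the controls, 33 and 49 reads in stiripentol 1 and 2, and 356 to 368 reads in stiripentol 3 to 5.

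Ier2, an immediate early gene of a nuclear protein linked to transcription, was next. Controls 1 to 5 had 6.98, 7.10, 6.41, 7.18 and 6.89 log2 CPM, and stiripentol 1 to 5 had 3.32, 3.68, 4.65, 4.74 and 4.71 log2 CPM. The highest treated library was well below the lowest control. Its mean level fell from 6.91 ± 0.30 to 4.22 ± 0.67, a log2 change of -2.69 (SE 0.30, limma adjusted p = 0.00028) or 6.46-fold. Ier3, whose product acts in survival and ERK signalling, had the tightest treated values of the 10 genes. They were 5.27, 5.46, 5.67, 5.65 and 5.69 log2 CPM, against 6.48, 6.57, 6.19, 7.04 and 6.93 log2 CPM in the controls. Again the groups did not overlap, and the Ier3 mean fell from 6.64 ± 0.34 to 5.55 ± 0.18, a log2 change of -1.09 (SE 0.17, limma adjusted p = 0.00155) or 2.13-fold.

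Among the Fos family, 3 of 4 genes were called lower. Fos itself, the founding partner of Jun in AP-1, had 3.66, 3.60, 3.16, 3.95 and 4.02 log2 CPM in the controls and 1.59, 1.30, 2.07, 2.37 and 2.25 log2 CPM after stiripentol. All treated libraries lay below all controls, with stiripentol 1 and 2 lowest. Its log2 change was -1.76 (SE 0.26, limma adjusted p = 0.00113), or 3.39-fold lower, and the values rest on 361 to 984 reads in control and 141 to 308 in treated libraries. Fosb, a close relative that can also drive transcription, had the lowest control level of the group. It had 2.10, 1.93, 1.95, 1.91 and 2.02 log2 CPM in control and -0.13, -0.02, 1.32, 1.58 and 1.41 log2 CPM in stiripentol libraries. The controls had an SD of 0.08, whereas the treated libraries split into a low pair and 3 libraries nearer to the controls, with no overlap between the groups. The log2 change of Fosb was -1.15 (SE 0.36, limma adjusted p = 0.0379), or 2.22-fold lower, from 90 to 278 reads in control and 53 to 177 in treated libraries.

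Fosl2, which encodes Fra-2, a Fos relative without the strong activation domain of Fos, had 7.40, 7.25, 7.63, 6.70 and 6.92 log2 CPM in control and 4.90, 5.43, 6.14, 6.25 and 6.28 log2 CPM in stiripentol libraries. Here the controls were split as well, with controls 4 and 5 the lower ones, yet no treated library reached them. Its log2 change was -1.38 (SE 0.28, limma adjusted p = 0.00608), or 2.60-fold lower. Fosl1, which encodes Fra-1, was the gene of the 10 that was not called. Its level was 5.84, 5.41, 5.37, 5.40 and 5.58 log2 CPM in control and 1.18, 1.54, 5.39, 5.39 and 5.37 log2 CPM in stiripentol libraries. Stiripentol 1 and 2 held 135 and 166 reads of Fosl1, while stiripentol 3 to 5 held 2276 to 2513 and overlapped with the controls. Over all libraries the log2 change was -1.75 (SE 0.86, limma adjusted p = 0.148). With a term for the library set the same change had a limma adjusted p of 0.0437, and without stiripentol 1 and 2 it was -0.13 with a limma adjusted p of 0.429.

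All 3 genes of the Jun family were called lower. Junb had 8.25, 8.20, 8.22, 8.69 and 8.50 log2 CPM in control and 6.59, 6.93, 7.36, 7.55 and 7.39 log2 CPM in stiripentol libraries. No library of the groups overlapped, and the log2 change of Junb was -1.21 (SE 0.19, limma adjusted p = 0.00155), or 2.31-fold lower. Jund, the Jun relative that most cells express without stimulation, had 7.97, 7.94, 8.10, 8.29 and 8.09 log2 CPM in control and 6.19, 6.29, 7.65, 7.78 and 7.66 log2 CPM in stiripentol libraries. Stiripentol 3 to 5 came close to the controls without reaching them, and stiripentol 1 and 2 lay far below. The log2 change of Jund was -0.96 (SE 0.32, limma adjusted p = 0.0461), or 1.95-fold lower. Jun, a partner for all Fos proteins, changed least. It had 5.76, 5.51, 5.86, 5.12 and 5.32 log2 CPM in control and 4.44, 4.72, 4.79, 5.15 and 5.09 log2 CPM in stiripentol libraries. Stiripentol 4 lay above control 4, so that the groups overlapped, and the log2 change was -0.67 (SE 0.19, limma adjusted p = 0.0222), or 1.60-fold lower.

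A two-sided exact permutation test of each gene over the 252 arrangements of 5 against 5 libraries gave p = 0.00794, the smallest it can give, for the 8 genes without overlap. The exact p was 0.0159 for Jun and 0.0476 for Fosl1. The calls of Fosb, Jund and Jun were the least stable of the 9. Fosb and Jund were no longer called when any 1 of the controls, stiripentol 1 or stiripentol 2 was left out, and Jun was no longer called without control 1, control 3 or stiripentol 2. With the library set as a term, all 10 genes were called lower, against 27.1% of all tested genes. A block on the replicate number of the sample records called 6 of the 10 lower against 8.63% of all, and a block on the number in the study's table called 8 of the 10 lower against 17.9% of all. Controls 1 to 3 were normalized apart from the other 7 libraries, and those 7 alone gave 5 of the 10 lower against 9.87% of all, namely Fos, Junb, Egr1, Ier2 and Ier3. When each group and library set was reduced to 1 mean, limma called 0 of the 10 and 0 of all genes, and 7 of the 10 had an unadjusted p under 0.05 and were lower, against 6.00% of all.

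Within each library set the fall was examined again. The sets were taken from these same data, so that the libraries of a set are alike by choice. The p-values within a set and of the interaction below measure only that small spread. In the 3-by-3 set 9 of the 10 genes were called lower, with 27.0% of all tested genes called lower, and in the 2-by-2 set 10 of the 10 were, with 46.5% of all. The controls and the treated libraries of the 3-by-3 set were normalized apart. A gene without reads had -4.82 log2 CPM in these controls and -4.74 in these treated libraries. Egr1 had 3325 to 5360 recovered reads in these controls and 356 to 368 in these treated libraries. With a pseudocount of 0.1 CPM on the recovered reads of all 10 libraries, limma called 9 of the 10 and 1748 of all genes lower. The part of normalization in the falls of the 3-by-3 set alone was not tested. The 9 genes called in both sets alone compare with 18.8% of all tested genes. Egr1 was 11.0-fold lower in the 3-by-3 set and 71.3-fold lower in the 2-by-2 set. Ier2 was 4.37-fold and 11.6-fold lower, and Fos 2.36-fold and 5.81-fold lower. Egr1 had the largest fall in both sets, while Fosl1 came second in the 2-by-2 set and last in the 3-by-3 set.

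The size of the fall differed between the sets for 8 of the 10 genes in a test of the interaction of stiripentol with the library set, and all 8 fell more in the 2-by-2 set. Of all tested genes, 63.3% differed in this test and 45.3% fell more in the 2-by-2 set, so that the difference was widespread. After quantile normalization, 7 of the 10 and 7387 of all genes differed. Fosl1 showed the widest gap, with a log2 change of -4.13 (17.5-fold lower, SE 0.17, limma adjusted p = 1.73e-08) in the 2-by-2 set and -0.15 (SE 0.12, limma adjusted p = 0.299) in the 3-by-3 set. Jund followed among the AP-1 genes, with log2 changes of -1.95 and -0.31. By contrast, the log2 change of Jun was -0.64 and -0.70 and that of Fosl2 -1.65 and -1.20, and these differences did not pass the test (interaction 0.06 with SE 0.20 and limma adjusted p = 0.797 for Jun, and -0.44 with SE 0.21 and limma adjusted p = 0.0888 for Fosl2). What sets the libraries apart was not tested. The control means of the sets lay within 0.61 log2 units of each other for every one of the 10 genes, whereas the treated means of the sets were 0.30 (Ier3) to 4.03 (Fosl1) log2 units apart, always lower in stiripentol 1 and 2. The median of all tested genes was also lower in stiripentol 1 and 2, at 4.77 and 4.87 log2 CPM against 5.18 to 5.20 in stiripentol 3 to 5. Small gaps such as those of Ier3 and Jun are thus of the size of this shift of the whole library. The treated sets lay farther apart than the control sets for 8 of the genes, while for Jun (0.43 against 0.49) and Ier3 (0.30 against 0.57) the controls lay farther apart. With the sets crossed between the groups, controls 4 and 5 against stiripentol 3 to 5 gave log2 changes of -3.01 for Egr1, -2.33 for Ier2 and -0.10 for Fosl1, and 8 of the 10 genes were called lower against 31.5% of all. Controls 1 to 3 against stiripentol 1 and 2 gave -6.61, -3.33 and -4.18 for these, with 10 of the 10 called lower against 45.2% of all. In the same order, the crossed log2 changes were -0.21 and -1.13 for Jun and -1.32 and -1.05 for Ier3. For Jun and Ier3, which treated set fell more thus depended on the matching of the sets, which the labels do not give.

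**Figure D2:**
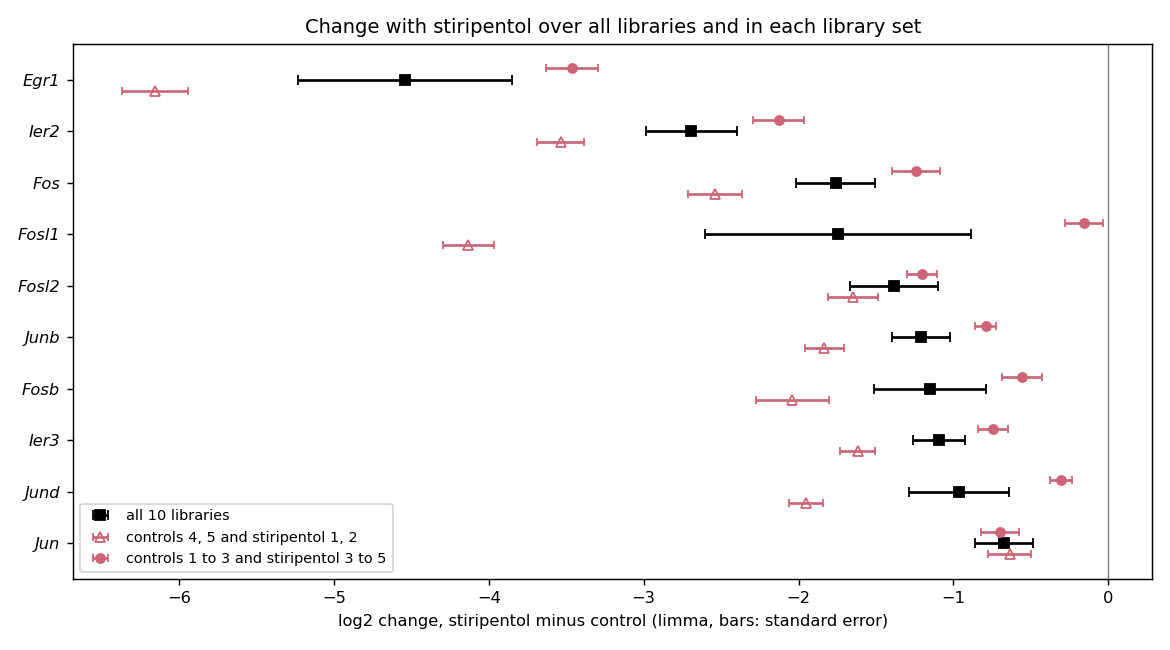
Log2 change of each gene (stiripentol minus control, limma, with its standard error as a bar) over all 10 libraries (black squares), in controls 4 and 5 with stiripentol 1 and 2 (open triangles) and in controls 1 to 3 with stiripentol 3 to 5 (filled circles). The triangles lie to the left of the circles for every gene but Jun, from -1.65 against -1.20 for Fosl2 to -4.13 against -0.15 for Fosl1.

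Because AP-1 is a dimer drawn from a pool of Fos and Jun proteins, the makeup of that pool was also described at the RNA level. For this, CPM was divided by the exon length of each gene, a comparison between genes that holds for reads from the whole transcript and less so for 3′ libraries, and the sources disagree on the library type. The summed Fos family was 38.7 to 51.6 CPM per kb in controls, 5.58 and 7.03 in stiripentol 1 and 2, and 30.1 to 31.2 in stiripentol 3 to 5. Fosl1 made up 45.0% to 54.6% of it in controls, 19.6% to 20.0% in stiripentol 1 and 2 and 66.1% to 68.6% in stiripentol 3 to 5. Fosl2 went the other way, with 27.8% to 45.2%, 55.3% to 63.1% and 24.2% to 26.0%. Per kb, Fosl1 held the largest share in 7 of the 10 libraries, and Fosl2 did in control 3, by a small margin, and in stiripentol 1 and 2. The ranking turned over when reads were not divided by length, as would suit 3′ libraries. Fosl2 then held most of the reads of the family in every library, with 62.9% to 78.5% in controls, 83.1% to 87.3% in stiripentol 1 and 2 and 59.2% to 61.4% in stiripentol 3 to 5. Fosl1 held 16.4% to 25.5%, 5.82% to 6.19% and 32.8% to 35.2% of the reads. On both scales the share of Fosl1 was lowest in stiripentol 1 and 2 and highest in stiripentol 3 to 5. The summed Jun family was 289 to 378 CPM per kb in controls, 92.3 and 108 in stiripentol 1 and 2, and 200.02 to 225 in stiripentol 3 to 5. Junb and Jund held most of it in every library, and Jun held 2.87% to 5.81% in controls, 7.38% to 7.64% in stiripentol 1 and 2 and 4.32% to 5.21% in stiripentol 3 to 5.

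**Figure D3:**
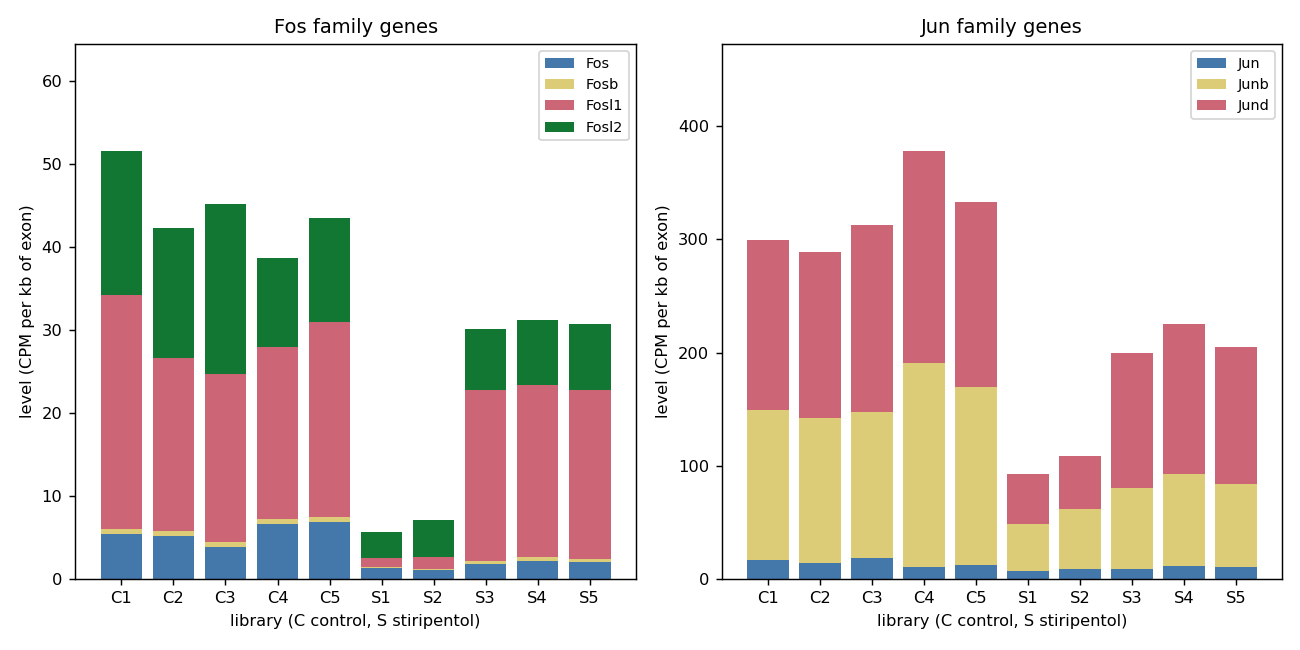
Stacked levels of the Fos family (left) and the Jun family (right) in CPM per kb of exon, 1 bar per library (C control, S stiripentol, axes from 0). The Fos family bar drops to 5.58 and 7.03 in stiripentol 1 and 2, where the Fosl1 segment nearly disappears, and stays at 30.1 to 31.2 in stiripentol 3 to 5, where Fosl1 remains and Fosl2 is smaller.

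The profiles of the 10 genes over the libraries were compared after each was centred on its own mean. The closest pair was Fosb and Jund, with a root mean square difference of 0.157 log2 units over the 10 libraries, followed by Junb and Ier3 with 0.192. Jun and Egr1 were the least alike, with 2.17, since they had the smallest and the largest change. Of all other tested genes, the one most like Egr1 was Ctgf (0.452), a secreted matrix protein gene that is itself immediate early, and its log2 change was -4.59. The nearest to Ier3 was St6galnac2 (0.0619), to Jund Loxl4 (0.0909), to Junb Kifc3 (0.0957), to Fosb Ski (0.101), to Jun Sh3pxd2b (0.103), to Fosl2 Fndc3b (0.109), to Fos Rapgef3 (0.178) and to Ier2 Pcdhb20 (0.206). Apart from Ctgf none of these is on the lists of pathway genes described below.

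The genes have few exons, as the GENCODE M21 annotation of GRCm38 gives them. Jun (chromosome 4, 95049034 to 95052222), Junb (chromosome 8, 84974484 to 84978718), Jund (chromosome 8, 70698949 to 70700616) and Ier2 (chromosome 8, 84661331 to 84662852) have 1 exon. Egr1 and Ier3 (chromosome 17, 35821684 to 35822923) have 2. The Fos family genes have 4 each, with Fosl2 the longest gene (22042 bases), Fos at 85473890 to 85477273 on chromosome 12 and Fosl1 at 5447547 to 5455946 on chromosome 19. Tested protein-coding genes had a median of 9 exons and a median log2 change of -0.07. The 245 other tested genes with 1 exon had a median log2 change of -0.77, and 80.4% of them were negative. For the 2742 other genes with 2 to 5 exons, the range that holds Egr1, Ier3 and the Fos family, these were -0.21 and 62.6%. They were -0.01 and 50.9% for the 8265 genes with over 5 exons. Gene structure therefore moved with the change across all genes, and its part in the fall of the 10 genes was not tested. Exons of 4 of the genes overlap a gene on the other strand, and the strand used in counting is not given in the sources used here. For Fosl1 and Ccdc85b the overlap is 1163 bases, and Ccdc85b had a log2 change of -0.45 (limma adjusted p = 0.130). Reads of Fosl1 and Ccdc85b there cannot be told apart without strand. The same holds for Jund and Gm11175 (877 bases), Jun and Junos (232 bases) and Junb and Prdx2 (173 bases).

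The genes around AP-1 and Egr1 were described from 5 lists of textbook pathway genes. Of 12 tested partners of AP-1 and Egr factors, 5 fell (41.7%, against 14.1% of all tested genes) and 2 rose (16.7%, against 13.6% of all), and the median log2 change was -0.22. Egr3, another Egr factor, had a log2 change of -3.92 (limma adjusted p = 0.0235). Its level depended on the library set in controls, with 4.43 to 5.56 log2 CPM in controls 1 to 3 against 0.36 and 1.00 in controls 4 and 5, so that the groups overlapped. Egr2 was below the level for testing, with 0.47 to 1.74 log2 CPM in control and -4.21 to 0.22 log2 CPM in stiripentol libraries, and these did not overlap (two-sided exact permutation p = 0.00794). Maf (-1.28, limma adjusted p = 0.0472), which encodes a leucine zipper factor, also fell. So did Nab2 (-1.06) and Nab1 (-0.89), corepressors that Egr factors recruit. Atf3, a stress-induced partner of Jun proteins, went the opposite way. It had 3.67, 3.96, 4.82, 3.75 and 3.99 log2 CPM in control and 5.26, 5.24, 6.50, 6.81 and 6.67 log2 CPM in stiripentol libraries. The groups of Atf3 did not overlap, and its log2 change was 2.06 (SE 0.36, limma adjusted p = 0.00271), or 4.17-fold higher. Atf7 was the other gene that rose, by 0.60.

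Of 34 other immediate early genes tested, 11 fell (32.4%, against 14.1% of all tested genes), 5 rose (14.7%, against 13.6% of all) and 18 were not called, with a median log2 change of -0.39. The largest falls were those of Ctgf (-4.59, limma adjusted p = 0.00274), Cyr61 (-2.25, limma adjusted p = 0.000181) and Rhob (-2.21, limma adjusted p = 0.0398). Ctgf and Cyr61 encode secreted matricellular proteins, and Rhob a small GTPase. The largest rises were those of Gadd45a (1.96), Gadd45g (1.39) and Csrnp1 (0.81), of which the Gadd45 genes are known as stress and growth arrest genes. Myc, another growth factor-induced factor, had a log2 change of -0.52 that was not called (limma adjusted p = 0.240).

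Upstream of AP-1, 28 kinases and transcription factors were tested. Of these, 3 fell and 3 rose, which is 10.7% each way against 14.1% and 13.6% of all tested genes, and the median log2 change was -0.32. Elk3 (-1.51), Srf (-0.72) and Map2k2 (-0.45) fell. Srf encodes serum response factor, which binds CArG boxes, and Elk3 a ternary complex factor, a partner of serum response factor. Map2k2 encodes the kinase MEK2 that activates ERK. Crtc2 (0.51) and Mapk9 (0.45), the genes of a CREB coactivator and of the kinase JNK2, were among those that rose. Of 17 tested genes of ERK feedback, 6 fell (35.3%) and 1 rose (5.88%), with a median log2 change of -1.07. These genes are induced by ERK, and the Dusp, Spry and Spred products dampen its pathway, while the Etv genes encode transcription factors. The largest falls were those of the phosphatase genes Dusp6 (-3.28, limma adjusted p = 0.0304) and Dusp1 (-2.36, limma adjusted p = 0.0234) and of the factor Etv1 (-1.38, limma adjusted p = 0.00797), and the rise was that of Dusp4 (1.12).

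Downstream, 16 genes known as AP-1 targets were tested. Of these, 6 fell (37.5%, against 14.1% of all tested genes) and 0 rose (against 13.6% of all). Their median log2 change was -1.33, against -0.06 for all genes tested. The largest falls were those of the matrix metalloproteinases. Mmp3 had 4.24 to 5.34 log2 CPM in control and -2.82 to -0.45 log2 CPM in stiripentol libraries. Its groups lay far apart, and the log2 change was -6.39 (SE 0.47, limma adjusted p = 3.56e-05). Mmp10 (-4.65, limma adjusted p = 1.06e-05) and Mmp13 (-3.72, limma adjusted p = 0.000396) followed. Unlike Fosl1, Mmp3 and Mmp13 fell more in the 3-by-3 set, with log2 changes of -7.26 and -4.41, than in the 2-by-2 set, with -5.09 and -2.69, and these differences passed the interaction test (limma adjusted p = 0.0013 and 0.000101). Il6, below the level for testing, had -3.61 to -2.50 log2 CPM in control and -2.25 to -0.46 log2 CPM in stiripentol libraries, from 1 to 38 reads.

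**Figure D4:**
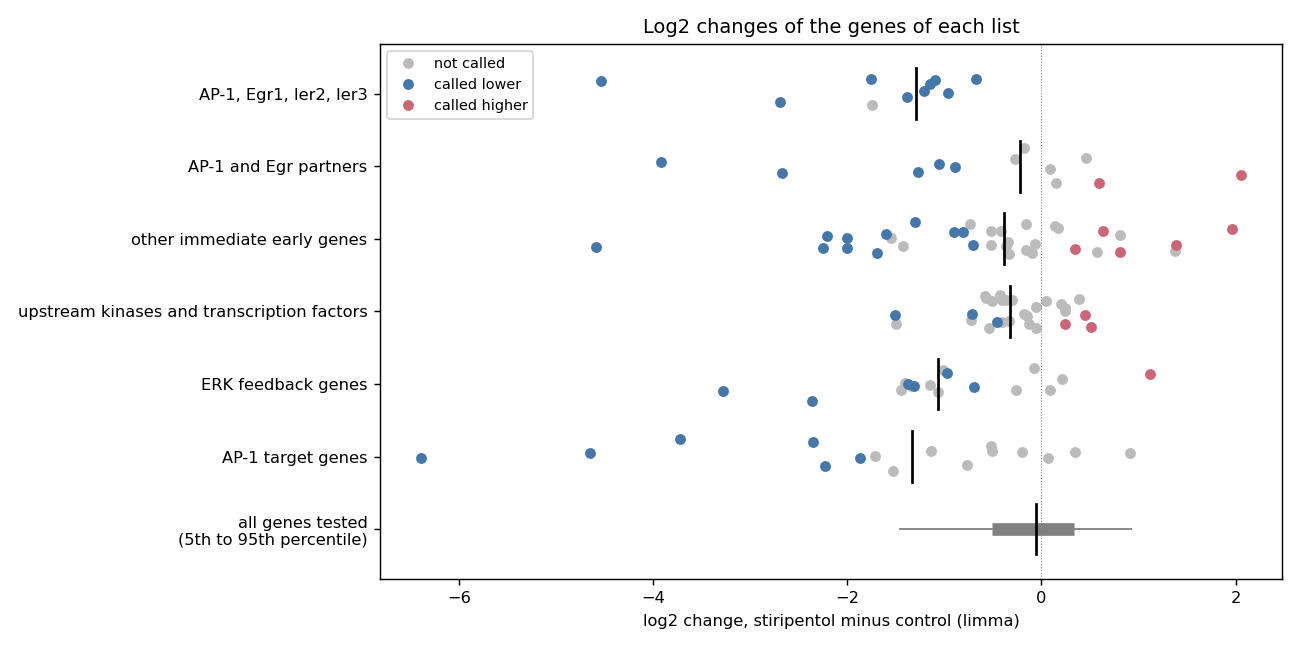
Log2 change (stiripentol minus control, limma) of each tested gene of the AP-1, Egr1, Ier2 and Ier3 group and of 5 lists of pathway genes, coloured by the call, with the list median as a black line; the last line gives the 5th to 95th percentile (thin) and the interquartile range (thick) of all 12306 genes tested. The first group lies wholly below 0 with a median of -1.29. The upstream kinases and factors have a median of -0.32, against -0.06 for all genes tested, and the AP-1 targets reach -6.39.

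Markers of other cells moved with the treatment and are given beside these changes. The summed CPM of 7 fibroblast markers was 404 to 696 in control and 152 to 185 in stiripentol libraries, with Lum at 3 reads or fewer in every library. The 4 leukocyte markers in the table summed to 6.43 to 18.6 CPM in control and 58.8 to 103 CPM in stiripentol libraries, which was mostly Cd68, whereas Ptprc, which marks leukocytes in general, had 3 reads or fewer in every library. Epithelial markers summed to 2278 to 2598 CPM and 1544 to 2145 CPM, with Epcam at 1 read or fewer. Neuroendocrine markers summed to 93.5 to 120 and 127 to 157 CPM, mostly Ncam1. Non-neuroendocrine markers summed to 3374 to 4692 and 3783 to 5662 CPM, mostly Vim, and endothelial markers to at most 0.638 and 1.07 CPM. Of the non-neuroendocrine markers, Yap1 had 7.17 to 7.46 log2 CPM in control and 5.62 to 6.91 log2 CPM in stiripentol libraries. Rest had 6.25 to 6.63 and 5.35 to 6.16 log2 CPM, whereas the groups of the other non-neuroendocrine markers overlapped. The part of these markers in the fall of the 10 genes was not tested.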

How the data were processed

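RNA of 5 control and 5 stiripentol samples was analysed from 1 deposited table, in which the authors gave log2 CPM per gene and library, with a prior added before the logarithm. Normalization to CPM used GENAVi, as the methods state, and mm10 is the build in the submitters' processing notes. The aligner, annotation and filters are not given in the sources used here. The table also holds group means, p-values, q-values and fold changes by the authors, which were not used. Whole reads were recovered from 100% of the values (tolerance 0.05). A gene without reads has -4.82 in controls 1 to 3 and -4.74 in the other 7 libraries, so that the table joins 2 normalizations. Intervals between counts cover counting error only.

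Groups were taken from the titles of the samples. The deposited log2 CPM were tested in R 4.3.3 by limma 3.58.1 with a mean-variance trend and no covariates, over the 12306 genes with a mean above 0, with Benjamini-Hochberg adjustment and a threshold of 0.05. The difference between library sets was the interaction contrast of 4 groups. Exact permutation tests, sequence searches and figures used Python 3.11.15, numpy 2.4.6, scipy 1.17.1, pandas 2.3.3 and matplotlib 3.10.9. The steps were tested on simulated data. The 10 genes, the lists, the markers and the library sets were chosen with earlier results of these data known. Of 2 Map2k7 entries the one with the higher mean was used. The genes named are the 10, the called genes of each list with the 3 largest rises and falls, and the nearest profiles, and the results of a few genes are not reported here. Nab1, Nab2, Egr2, Il6 and Myc, and the genes overlapping the 10, were named after their values were seen. No 2 libraries of a group and set agreed within counting noise (chi-square per gene of 6.75 or more). Same-numbered libraries did not deviate together (mean correlation -0.152), and in the numbering of the study's table they did so weakly (mean 0.183, lowest 0.0841), so that neither numbering was taken as a pairing. Alternatives were a replicate block, a term for the library set, each set alone, each library left out, means per set, other scalings, filters and pseudocounts, voom, and 5 chosen after the data were seen.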

Additional observations from a re-analysis of the deposited data

Results flagged for a closer look

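The effect of stiripentol differed between the 2 sets of libraries, by the interaction test of limma with Benjamini-Hochberg adjustment, for 8 of the 10 genes. The log2 change in the 2-by-2 set minus that in the 3-by-3 set was -3.98 for Fosl1, -2.69 for Egr1, -1.65 for Jund, -1.48 for Fosb, -1.41 for Ier2, -1.30 for Fos, -1.04 for Junb and -0.87 for Ier3. Each fell more in the 2-by-2 set, as 45.3% of all tested genes did. The order rests on the matching of the sets, and with the sets crossed that of Ier3 was reversed. Its log2 change was then -1.05 with stiripentol 1 and 2 and -1.32 with stiripentol 3 to 5. Fosl1 stood apart from its own family, because in the 3-by-3 set its treated libraries had 5.37 to 5.39 log2 CPM and its controls 5.37 to 5.84, whereas Fosl2 and Fos were lower in every treated library. The adjusted p of the difference ranged from 2.42e-07 for Fosl1 to 0.000736 for Ier2. No single library stood out from the other 4 of its group in any of the 20 groups of 5 values tested, where chance gives about 1, but stiripentol 1 and 2 were low together, and a test of single values cannot pick out such a pair.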

How the results depend on the processing

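The log2 change of all 10 genes was negative under each of 27 alternatives, of which 22 were planned, and 9 genes were called lower in the analysis as reported. The block on the replicate number called 6 of the 10 lower (8.63% of all genes), with Fosb, Jun and Jund lost at adjusted p of 0.0754, 0.0875 and 0.0508, and it called 5 pathway genes higher (11 as reported) and 1062 and 1020 of all genes lower and higher (1740 and 1674 as reported); other calls of the 10 genes did not change, and neither numbering was taken as a pairing. A term for the library set called 51 pathway genes lower (31 as reported) and 3336 and 2908 of all. The 2-by-2 set alone called 70 and 17 pathway genes and 5726 and 3158 of all lower and higher, and the 3-by-3 set alone 49 and 25 and 3322 and 4637. With 1 mean per group and set, 0 of the 10, 0 and 0 pathway genes and 0 and 0 of all genes were called by limma, but 7 of the 10 and 1116 of all had an unadjusted p under 0.05. This leaves 2 values a group. Without a filter, 7 of the 10 were lower (Fosb 0.0698, Jund 0.0825) and 7 pathway genes higher. Quantile and TMM scaling moved the median of all genes from -0.06 to 0.05 and each called 9 of the 10. With quantile scaling the effect differed between the sets for 7 of the 10 and 7387 of all genes.

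Of the alternatives chosen after the data were seen, controls 1 to 3 against stiripentol 1 and 2 called 71 and 18 pathway genes and 5564 and 3457 of all, controls 4 and 5 against stiripentol 3 to 5 called 38 pathway genes higher and 3880 and 4610 of all (8 of the 10 lower), and the 7 libraries of 1 normalization called 5 of the 10 lower, with 14 and 3 pathway genes. In that fit Fosb, Fosl2, Jun and Jund were lost, at adjusted p of 0.205, 0.122, 0.259 and 0.189. The block in the numbering of the study's table called 8 of the 10 lower, with Jund lost at 0.0648, and 2199 and 2050 of all. Leaving out 1 library gave 6 to 9 of the 10 lower and 0 to 0 higher, 23 to 31 and 4 to 9 pathway genes, 1171 to 1802 and 1218 to 1706 of all, and a difference between the sets for 8 to 9 of the 10 and 6858 to 8738 of all. The causes were not tested. A quasi-likelihood count test on the recovered reads was planned and not run. Depth limits Fosb and Egr1 most, with 53 and 33 reads in their lowest libraries.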
